A study of Mus musculus with 6 samples.

Results

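Spi1, which encodes PU.1, and the interferon regulatory factor genes Irf8, Irf1, Irf2, Irf4 and Irf5 were followed in AE9a leukemia cells and their normal counterparts. All probe sets of the deposited table that carry one of these symbols alone were taken, which gave 7 of 28821 probe sets and 5 genes of 13146. Spi1, Irf1 and Irf2 had 1 probe set each and Irf8 and Irf5 had 2 each, while no probe set of the table carries Irf4 as its only symbol, so Irf4 was not analysed here.

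The samples were Lin-/Sca1-/cKit+ cells, the fraction of blood-forming tissue that holds committed myeloid progenitors. The 3 leukemia samples were sorted from spleens of lethally irradiated adult MF1 mice that had been given hematopoietic progenitors transduced with AE9a, a truncated AML1-ETO fusion protein. Each leukemia label names 1 mouse, and the host mice are labelled wild-type. The 3 wild-type samples were sorted from bone marrow of MF1 mice, and since their labels say mice, a sample may pool several animals. All mice were 12 to 16 weeks old, and the organ differs along with the leukemia, so spleen and leukemia cannot be told apart. No source used here says whether host cells were removed.

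PU.1 is an ETS-family transcription factor that binds purine-rich sites and is needed for the macrophage, granulocyte and lymphoid lineages. IRF proteins bind GAAA-rich elements through a shared N-terminal domain. IRF8 and IRF4 bind DNA weakly alone and pair with PU.1 on composite ETS-IRF sites. IRF8 drives monocyte and dendritic cell fate and restrains granulocyte output, and mice without it develop a myeloproliferation that resembles chronic myeloid leukemia. IRF1 is an activator induced by interferon, IRF2 opposes it on many sites, and IRF5 acts below Toll-like receptors in inflammatory gene induction.

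The promoter windows of Irf8, Irf1 and Irf2 are shown because these genes gave the steepest fall, an intermediate fall and no called change. Each window runs from 250 bases before to 50 bases after a RefSeq gene start (GRCm38.p6, plus strand, printed 5′ to 3′), and capitals mark the motif letters found.
Irf8, chr8:120736108-120736407: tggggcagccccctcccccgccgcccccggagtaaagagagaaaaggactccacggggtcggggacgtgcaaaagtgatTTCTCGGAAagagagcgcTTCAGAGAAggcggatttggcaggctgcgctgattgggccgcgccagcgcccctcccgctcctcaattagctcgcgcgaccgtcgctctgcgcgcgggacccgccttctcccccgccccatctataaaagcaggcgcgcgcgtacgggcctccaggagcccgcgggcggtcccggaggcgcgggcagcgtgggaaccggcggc
Irf1, chr11:53769764-53770063: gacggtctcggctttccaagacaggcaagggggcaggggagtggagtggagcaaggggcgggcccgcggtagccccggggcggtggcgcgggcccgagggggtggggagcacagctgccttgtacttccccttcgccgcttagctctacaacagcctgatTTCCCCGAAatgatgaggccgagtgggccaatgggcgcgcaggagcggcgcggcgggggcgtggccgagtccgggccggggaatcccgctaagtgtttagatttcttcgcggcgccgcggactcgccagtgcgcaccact
Irf2, chr8:46739495-46739794: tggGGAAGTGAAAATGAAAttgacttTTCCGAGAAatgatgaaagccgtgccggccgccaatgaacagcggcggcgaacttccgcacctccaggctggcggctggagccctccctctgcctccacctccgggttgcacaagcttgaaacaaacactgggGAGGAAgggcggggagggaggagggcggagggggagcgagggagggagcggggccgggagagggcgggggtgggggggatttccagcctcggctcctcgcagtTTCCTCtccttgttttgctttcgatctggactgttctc
Both strands were searched for the gamma-activated site TTCNNNGAA, the interferon-stimulated response element (GAAA, any 2 bases, GAAA), the ETS-IRF composite (GGAA, any 2 bases, GAAA), the PU box GAGGAA and the RUNX site TGTGGT.

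The Irf8 window held 2 gamma-activated sites, TTCTCGGAA at -171 and TTCAGAGAA at -153 from the start, and none of the other motifs. The Irf1 window held 1, TTCCCCGAA, at -90. A gamma-activated site is present in 8.3% of 32841 promoter windows of this length. The Irf2 window held 1 gamma-activated site, an ETS-IRF composite that overlaps an interferon-stimulated response element at its far end, and 2 PU boxes, 1 of them on the minus strand. The composite is present in 2.72% of windows, the response element in 3.44% and the PU box in 28.3%. The RUNX site, present in 16.8% of windows, was in none of the member windows, and the Irf4 window held 1 PU box. The Irf5 window and the windows at further starts of Irf8 and Irf1 held none of the 5 motifs. The table used here has no window for Spi1. These matches describe letters only and show neither binding nor its absence.

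Irf8 fell the most of the 5 genes in leukemia, Irf1 was next, and Spi1 fell by less than either. Irf2 did not pass the test, and the probe sets of Irf5 moved in opposite directions. Levels are log2 of the deposited intensity, a change is leukemia minus wild-type on that scale, and a gene with several probe sets is represented by its brightest. Genes passed at a Benjamini-Hochberg adjusted p under 0.05 in limma's moderated test over 9715 genes. Of the 5 measured genes 3 fell and 1 rose, where 42.1% of all tested genes passed (25.2% lower, 16.9% higher). Leukemia and wild-type values were fully apart for 4 of the 5 genes, against 59.2% of all tested genes, and for 6 of the 7 probe sets, against 56.6% of all tested probe sets. All 5 genes and 7 probe sets passed the filter on dim values, but Irf8 passed it through the wild-type arrays alone, so its count adds nothing.

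**Figure D1:**
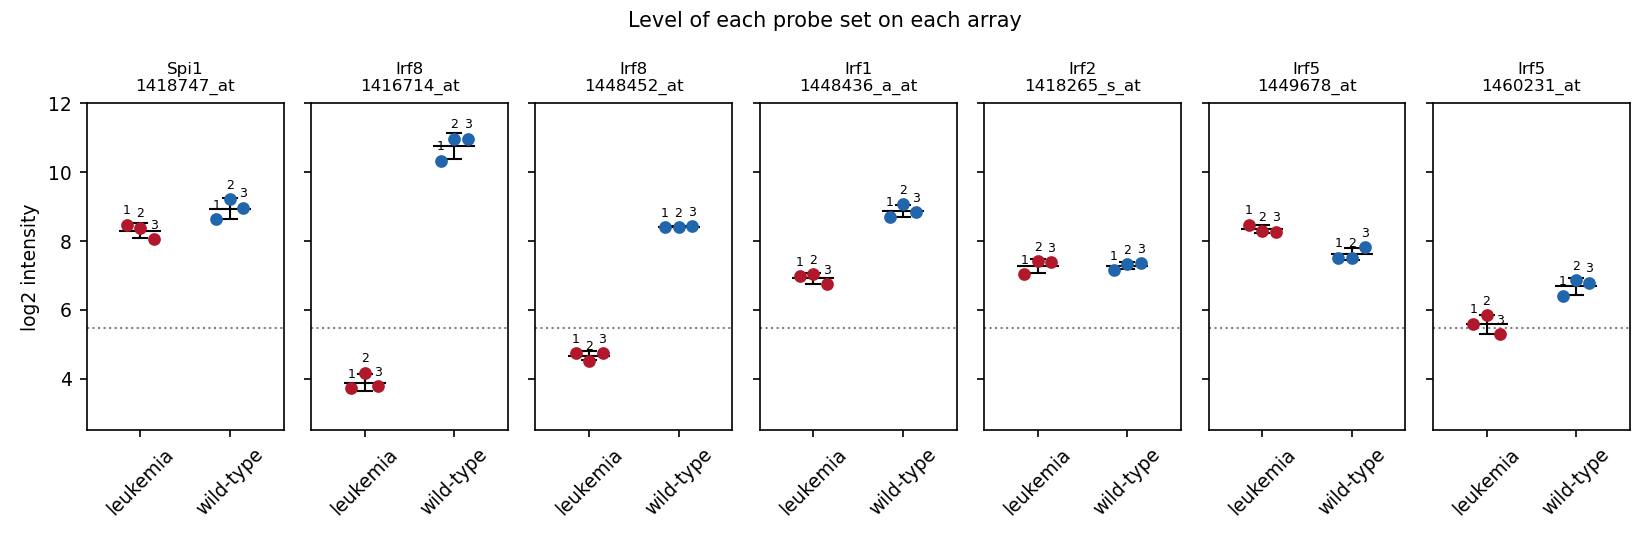
Level of each of the 7 probe sets (log2 intensity, y axis) on the 3 leukemia and 3 wild-type arrays. Points are arrays with their replicate number, bars are mean ± SD, and the dotted line is the mean over arrays of the 40th percentile of all probe sets, the filter for dim values. Both Irf8 probe sets lie below that line on every leukemia array, and the Irf5 probe sets differ between the groups in opposite directions.

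Arrays limit the precision of every value by their number, and some array measures moved with the groups. Leukemia arrays correlated with each other at 0.969 to 0.978 and wild-type arrays at 0.992 to 0.994 (Pearson, across probe sets). Leukemia replicate 1 stood apart with an array weight of 0.191 (0.831 to 2.82 on the other 5 arrays), and it alone of the leukemia arrays shared a fluidics run with the wild-type ones. The 3' minus 5' difference of Gapdh, a measure of RNA integrity, was 0.31, 0.08 and 0.01 log2 on leukemia arrays 1 to 3 and -0.14, -0.10 and -0.06 on the wild-type arrays (exact permutation p = 0.1, two-sided, the smallest that 3 against 3 allows). The same difference of Actb was 0.45 ± 0.22 in leukemia and 0.42 ± 0.09 in wild-type (SD, n = 3 each), with a two-sided p = 0.9 by exact permutation. The 5' probe set of 18S ribosomal RNA was at 11.58 ± 0.67 log2 in leukemia and at 8.45 ± 0.85 in wild-type (SD, n = 3 each), with no overlap (exact permutation p = 0.1, two-sided). The part of these measures in the changes below was not tested. Values with the run as a block are given beside each member. That fit sets a single leukemia array, replicate 1, against the 3 wild-type arrays, the one comparison a run allows. Kit, the sort receptor, was at 9.76, 9.80 and 9.34 log2 on the leukemia arrays and at 10.42, 10.42 and 10.35 on the wild-type arrays (change -0.76, adjusted p = 0.00436, limma). Its other probe set was at 7.26, 7.92 and 7.71 in leukemia and at 7.80, 6.73 and 6.203 in wild-type (change 0.72, adjusted p = 0.201, limma over probe sets). Ly6a, the gene of Sca1, was not analysed here.

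PU.1 transcripts were present in both groups. Spi1 (probe set 1418747_at) was at 8.47, 8.39 and 8.05 log2 on leukemia arrays 1, 2 and 3, against 8.63, 9.22 and 8.97 on the wild-type arrays. Every leukemia array lay below every wild-type array, but leukemia replicate 1 and wild-type replicate 1 were close neighbours. The level lay between the 71.3rd and 77.2nd percentile of all probe sets in leukemia and between the 78.9th and 85.3rd in wild-type. Spi1 fell by 0.64 ± 0.19 (SE; 95% interval -1.09 to -0.19; limma adjusted p = 0.0324), a level 1.56-fold lower, and 20.1% of tested genes had a change as low or lower.

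The Spi1 call lay close to the threshold and did not hold in every fit with 1 array left out. Such fits have fewer arrays, so a lost call does not single out the array left out. The call ended on leaving out leukemia replicate 2 (-0.68, adjusted p = 0.0522 by limma) or leukemia replicate 3 (-0.51, adjusted p = 0.0780 by limma). The same held for leaving out wild-type replicate 2 (-0.50, adjusted p = 0.110 by limma) or wild-type replicate 3 (-0.62, adjusted p = 0.104 by limma). It was also lost with each array centred on its median (-0.56, adjusted p = 0.0654, limma) and with the run as a block (-0.47, 0.156). The direction stayed the same in all 19 alternatives, whose changes ran from -0.79 to -0.47.

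Irf8 transcripts were near the bottom of the intensity range in leukemia. Probe set 1416714_at had intensities of 13.1, 17.98 and 13.7 on the leukemia arrays, against 1294, 2011 and 2011 on the wild-type arrays. On the log2 scale these are 3.71, 4.17 and 3.78 in leukemia and 10.34, 10.97 and 10.97 in wild-type. The groups are separated by more than 6 log2 units. It fell by 6.87 ± 0.23 (SE; 95% interval -7.41 to -6.33; limma adjusted p = 5.64e-06). With the run as a block the change was -7.05 (adjusted p = 7.64e-05, limma), and it lay between -7.09 and -6.77 when any single array was left out.

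The other Irf8 probe set, 1448452_at, was lower as well but by less. It was at 4.75, 4.52 and 4.74 log2 in leukemia and at 8.40, 8.41 and 8.43 in wild-type and the groups are far apart. It fell by 3.75 ± 0.14 (SE; 95% interval -4.08 to -3.41; limma adjusted p = 7.89e-06 over 18098 probe sets, of which 38.4% passed), and by 3.67 with the run as a block. Both probe sets lay below the 40th percentile on all leukemia arrays, at the 16.1st to 31.2nd percentile, so that the size of the fall depends on the handling of background. They passed the filter through the wild-type arrays alone, so the direction of their fall was fixed. With 16 added before the log the changes were -5.83 and -3.11.

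Irf1 was lower in leukemia at a level that remained measurable. Its probe set 1448436_a_at was at 6.97, 7.04 and 6.74 log2 on the leukemia arrays, against 8.70, 9.07 and 8.84 on the wild-type arrays. The groups lay apart by more than the range within either group. Irf1 fell by 1.95 ± 0.15 (SE; 95% interval -2.32 to -1.59; limma adjusted p = 1.18e-04), a level 3.87-fold lower. It was at -1.90 with the run as a block (adjusted p = 8.13e-04, limma) and between -2.04 and -1.86 with any single array left out. The call held in all 18 alternatives that gave a value.

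Irf2, the counterpart of IRF1 on many of its sites, overlapped between the groups. Its probe set 1418265_s_at was at 7.03, 7.41 and 7.39 log2 in leukemia and at 7.16, 7.32 and 7.35 in wild-type. The lowest and the highest value were both leukemia arrays. The group means were 7.28 ± 0.21 in leukemia and 7.28 ± 0.10 in wild-type (SD, n = 3 each), with a 95% interval of the difference of -0.38 to 0.38 (limma adjusted p = 0.998). Its ending marks a probe set that may match more than 1 transcript family, and it was the only Irf2 probe set. With the run as a block it was at -0.24 (adjusted p = 0.230, limma), and its sign turned in 7 of 18 alternatives, none of which passed.

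For Irf5 the direction depended on the probe set. The brighter one, 1449678_at, whose platform entry cites an EST accession, was at 8.48, 8.29 and 8.27 log2 in leukemia and at 7.52, 7.52 and 7.82 in wild-type. It rose by 0.73 ± 0.14 (SE; 95% interval 0.39 to 1.07; limma adjusted p = 0.00675), and by 0.86 with the run as a block. The dimmer one, 1460231_at, whose entry cites a RefSeq transcript, was at 5.59, 5.84 and 5.30 in leukemia and at 6.40, 6.85 and 6.79 in wild-type. It fell by 1.11 ± 0.21 (SE; 95% interval -1.59 to -0.62; adjusted p = 0.00604, limma over probe sets), and by 1.09 with the run as a block.

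Neither probe set's groups overlapped, so the data give no single direction for Irf5. The mean of the pair was at -0.19 (adjusted p = 0.318, limma). The fall of the dimmer probe set passed in each of the 15 alternatives that tested it (-1.25 to -0.90), and the rise of the brighter one passed in each of 16 (0.64 to 0.86). Which transcripts or regions the probes match was not analysed here, since no probe sequence was used.

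**Figure D2:**
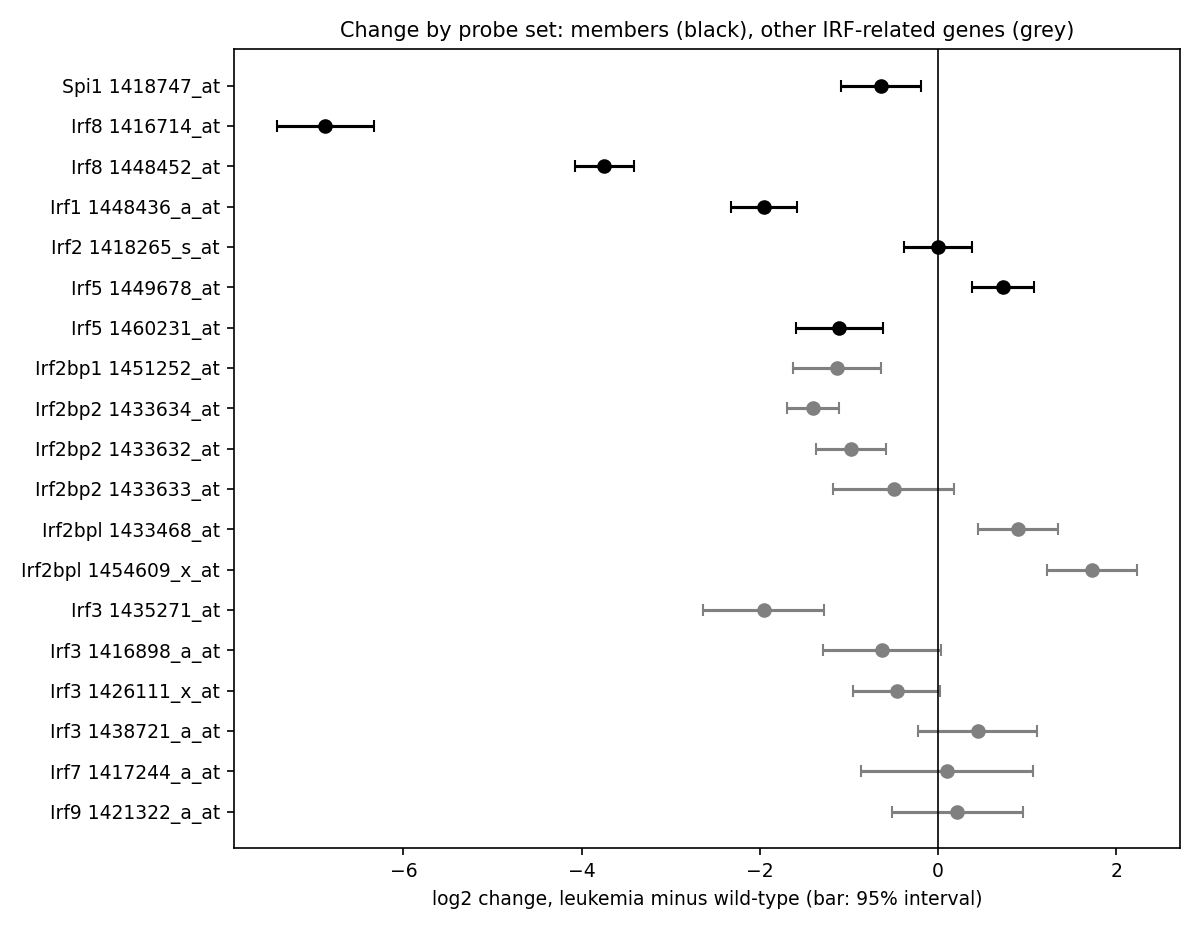
Change of each tested probe set (log2, leukemia minus wild-type, x axis) with its 95% interval from limma, for the 7 member probe sets in black and those of other IRF genes and IRF2-binding protein genes in grey. Irf8 lies farthest below 0, Irf2 spans 0, and the probe sets of Irf5 and of Irf3 do not share a direction.

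As a description within arrays, Irf8 and Irf1 were lower relative to Spi1 in leukemia, and Irf2 and the brighter Irf5 probe set were higher. The Irf8 minus Spi1 difference was -4.75, -4.22 and -4.27 log2 on the leukemia arrays and 1.70, 1.75 and 2.00 on the wild-type arrays, a difference between groups of -6.23. The Irf1 minus Spi1 difference was lower in leukemia by 1.31. The corresponding values were 0.64 for Irf2 and 1.37 for the brighter Irf5 probe set, both higher in leukemia. The Irf2 value only mirrors the fall of Spi1, as the change of Irf2 itself was -0.00053. All 4 comparisons share Spi1 and are not separate results, and each separated all leukemia from all wild-type arrays. The exact permutation p was 0.1 (two-sided, the smallest that 3 against 3 allows, and adjusted p = 0.1 over 4), so none can pass 0.05. For Irf2 the nearest arrays were at -1.44 (leukemia replicate 1) and -1.48 (wild-type replicate 1). The dimmer Irf5 probe set was not compared. On their own levels 59.2% of all tested genes were fully apart, and the share separated by the difference to Spi1 was not counted.

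The genes whose level profile over the 6 arrays came closest were found by the root mean square difference of values centred on each gene's mean, as a description. For Irf8 they were Lyz1 (0.21 log2), Ly86 (0.22) and H2-Aa (0.23), which encode a lysozyme, a partner of the receptor CD180 and an MHC class II chain, with changes of -6.74, -6.50 and -6.46. Irf8 and Ly86 lay below the filter on all leukemia arrays. Closeness to Irf8 rests largely on a fall of similar size, and shared regulation was not tested. For Irf1 they were the actin crosslinker gene Flna (0.08), the nuclear receptor gene Rora (0.10) and Ltbp3 (0.10), with changes of -2.07, -1.93 and -2.06. For Spi1 they were Chst14 (0.08), St6galnac4 (0.10) and H13 (0.10), at -0.72, -0.68 and -0.64. Capzb, Zdhhc16 and Lcmt2 came closest to Irf2 (each 0.04). Bri3bp, Tmem184c and Pkig came closest to the brighter Irf5 probe set (0.06, 0.06 and 0.07).

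Of the 6 genes measured among other IRF family members and IRF2-binding proteins, 1 rose and 2 fell (50% passed, against 42.1% of all tested genes; median -0.18, against -0.09 over all genes tested). By their brightest probe sets Irf2bp2 and Irf2bp1, corepressor genes named for binding IRF2, fell by 1.41 and 1.14, and Irf2bpl rose by 1.72. Other Irf2bp2 probe sets were at -0.98 (1433632_at, adjusted p = 0.00424, limma over probe sets) and at -0.50 (1433633_at, 0.209), and 1454665_at was not tested. The other Irf2bpl probe set, 1433468_at, rose by 0.90. Irf7, the main amplifier of type I interferon, was at 5.49, 7.001 and 6.93 log2 in leukemia and at 6.59, 6.43 and 6.10 in wild-type (change 0.10, adjusted p = 0.862, limma). Irf9, the DNA-binding subunit of the interferon-stimulated complex ISGF3, was at 7.96, 8.97 and 9.18 in leukemia and at 8.70, 8.37 and 8.39 in wild-type (change 0.22, adjusted p = 0.603, limma). On both genes leukemia replicate 1 lay below every wild-type array and the other leukemia arrays above them.

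Irf3, which acts below viral nucleic acid sensors, was at 9.04, 9.73 and 9.86 log2 in leukemia and at 9.99, 10.01 and 10.03 in wild-type with its brightest probe set (change -0.46, adjusted p = 0.113, limma). Its probe set 1435271_at fell by 1.96 (adjusted p = 0.00222, limma over probe sets), while 1416898_a_at was at -0.63 and 1438721_a_at at 0.45 without passing. With only probe sets free of shared endings the median of the list was -1.27. Without leukemia replicate 1 the list held 3 risen genes and a median of 0.19. With the run as a block it held 5 fallen genes and a median of -0.93.

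Of 31 tested PU.1 target genes (39 measured of 42 listed) 22 fell and 3 rose, with a median change of -2.85 against -0.09 over all genes tested. The share that passed was 80.6%, against 42.1% of all tested genes (25.2% lower, 16.9% higher). Of these 31, 11 lay below the 40th percentile on all leukemia arrays, so they passed the filter through the wild-type arrays alone and had to fall. Mpo, Elane, Ptprc, Csf1r and Cybb, named below, are among these 11. The median was -1.27 with dim genes kept, and 1 gene rose when only probe sets free of shared endings were used. The primary granule genes Mpo and Elane fell by 9.31 and 7.66, and Ptprc, which encodes CD45, fell by 7.64. Csf1r, the M-CSF receptor and a textbook PU.1 target, fell by 6.27, and Cybb, the oxidase subunit that PU.1 and IRF8 activate together, fell by 3.57. Csf2rb, the shared beta chain of the GM-CSF, IL-3 and IL-5 receptors, rose by 2.15, Laptm5 by 0.63 and Coro1a by 0.44. Coro1a no longer passed when wild-type replicate 3 was left out (limma adjusted p = 0.0528). Btk (0.21), Cyba (0.18) and Itgb2 (-0.22) did not pass.

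Genes that depend on IRF8 in monocytes and dendritic cells split. Of 15 tested (22 measured of 27 listed) 6 fell and 2 rose, with a median of -0.19 (53.3% passed, against 42.1% of all tested genes). Of the 15, 4 (Ly86, Csf1r, Cybb and Cx3cr1) were below the filter on all leukemia arrays and had to fall. Another 1, Ptpn13, was below it on all wild-type arrays and had to rise. Ly86 fell by 6.50 and Csf1r by 6.27, and Cd74, the MHC class II invariant chain, fell by 3.87. Cybb fell by 3.57. The phosphatase gene Ptpn13, which IRF8 represses in myeloid cells, rose by 3.70 and Ctsc, cathepsin C, rose by 1.20. The median was 0.09 without wild-type replicate 1 and -0.33 without leukemia replicate 1.

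Markers of monocytes and dendritic cells, where Irf8 is normally highest, moved with it, but many passed the filter through the wild-type arrays alone, so that their fall was fixed. Across the marker lists the share that passed ran from 58.3% (erythroid) to 100%, against 42.1% of all tested genes (25.2% lower, 16.9% higher). The B cell, T and NK cell and neutrophil lists had only 3, 2 and 1 tested genes. Of 10 tested monocyte and macrophage markers (14 measured of 16) 9 fell, 8 of the 10 being below the filter on all leukemia arrays, and the summed intensity of the measured markers was 360 to 521 on the leukemia arrays, against 6254 to 10733 on the wild-type arrays. All 5 tested dendritic cell markers (9 measured of 13) fell, 2 of them below the filter on all leukemia arrays, with sums of 278 to 338 against 2966 to 3652. For B cell markers 2 of 3 tested fell, both below the filter in leukemia, with sums of 216 to 366 against 833 to 2194. The 1 tested neutrophil marker (10 measured of 14) fell and was below the filter on all leukemia arrays, with sums of 167 to 179 against 594 to 1217. Of 2 tested T and NK cell markers (9 measured of 14) 1 rose, being below the filter on all wild-type arrays, and 1 fell, with sums of 317 to 351 against 2348 to 2952. Of 8 tested megakaryocyte markers (11 measured of 12) 6 fell, 3 of them below the filter on all leukemia arrays, and 2 rose, with sums of 966 to 1930 against 2621 to 2885. Of 10 tested mast cell and basophil markers (12 measured of 13) 6 rose and 1 fell, 2 being below the filter on all wild-type arrays and 1 on all leukemia arrays, with sums of 14386 to 27821 in leukemia and 5582 to 6342 in wild-type. Of 12 tested erythroid markers (12 measured of 15) 6 rose and 1 fell, 3 being below the filter on all wild-type arrays, with overlapping sums of 25533 to 34136 and 22608 to 32185. The part of such cells in the Irf8 and Irf1 changes was not tested. In sorted bulk samples fewer cells of a type and less RNA per cell cannot be told apart.

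Partners and antagonists of PU.1 moved in both directions. Of 26 tested (27 measured of 30 listed) 9 rose and 9 fell, with a median of -0.08 (69.2% passed, against 42.1% of all tested genes). Of the 26, 4 were below the filter on all leukemia arrays and had to fall, among them Cebpa, Gfi1 and Satb1. Cebpa, the partner that opens the granulocyte-monocyte programme, fell by 5.39, Gfi1, a repressor that opposes PU.1 in granulocyte fate, fell by 5.04, and the chromatin organiser gene Satb1 fell by 4.87. Jun, a PU.1 coactivator, was at 10.39, 7.29 and 7.22 log2 in leukemia and at 5.97, 5.70 and 5.16 in wild-type and rose by 2.69. Egr1, which acts with PU.1 in macrophage fate, rose by 2.57 and Junb by 1.97. Jun was far higher on leukemia replicate 1 than on the other leukemia arrays, and its change was 1.64 without that array and 4.78 with the run as a block, where Junb was at 3.03. Dropping any wild-type array ended the Jun call (limma adjusted p = 0.0794, 0.0961 and 0.117), and dropping wild-type replicate 1 or 3 ended that of Junb (0.0646 and 0.0593). Without any single wild-type array the number of risen genes was 5. The median was -0.64 with the run as a block and 0.14 without leukemia replicate 1.

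**Figure D3:**
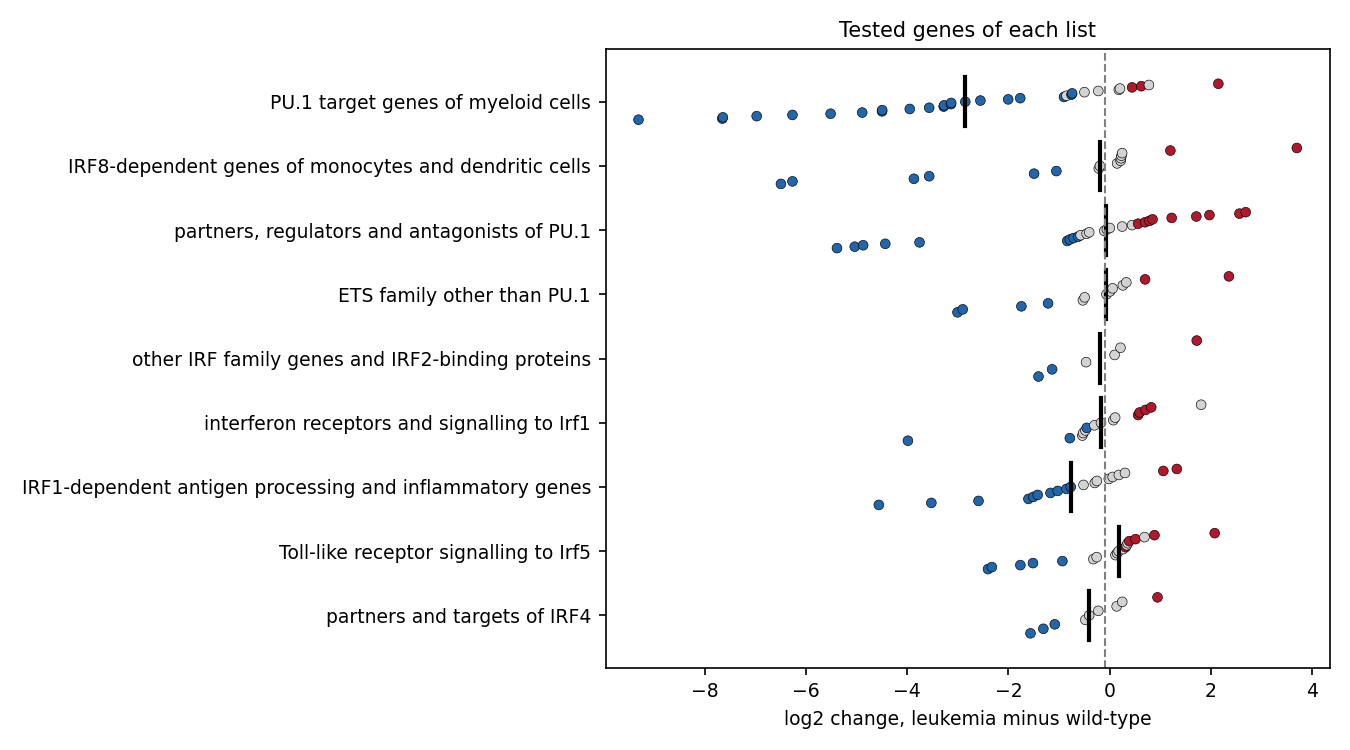
Change of each tested gene (log2, leukemia minus wild-type, x axis) in the 9 pathway lists. Red points rose and blue points fell at an adjusted p under 0.05 (limma), grey points did not pass, black bars are list medians and the dashed line is the median of all tested genes. The PU.1 target list has the lowest median of the 9, at -2.85, or -1.27 with dim genes kept.

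Among the other ETS genes, which share the DNA-binding domain of PU.1, 2 rose and 4 fell of 13 tested (21 measured of 24 listed), with a median of -0.06 (46.2% passed, near the 42.1% of all tested genes). With the run as a block 4 rose and the median was 0.16, and without leukemia replicate 1 the median was -0.17. Ets1 rose by 2.36 and Fli1 by 0.70. Elk3, below the filter on all leukemia arrays, fell by 3.01, the stem cell factor gene Erg by 2.90 and Etv6 by 1.74. Fli1 did not pass with wild-type replicate 1 left out (limma adjusted p = 0.0584), which leaves 1 risen gene. Spib and Spic, the closest relatives of Spi1, lay below the filter and were not tested.

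Upstream of Irf1, the receptor for interferon-gamma showed a split between its chains. Ifngr1, the ligand-binding chain, was at 7.26, 6.65 and 5.53 log2 on the leukemia arrays, against 10.59, 10.41 and 10.41 on the wild-type arrays. It fell by 3.99 ± 0.40 (SE, limma adjusted p = 3.57e-04), and no leukemia array came within 3 log2 units of a wild-type array. Ifngr2, the signalling chain, was at 0.07 (adjusted p = 0.779, limma). Of the 15 tested receptor and signalling genes (17 measured of 18 listed) 4 rose and 3 fell, with a median of -0.17 (46.7% passed, near the 42.1% of all tested genes). The phosphatase gene Ptpn2, which dampens this pathway, rose by 0.82, and the kinase genes Jak2 and Jak1 by 0.71 and 0.59. Il10rb fell by 0.79, and Ifnar1, a type I interferon receptor chain, by 0.45. The Ifnar1 call was lost without leukemia replicate 2 or any single wild-type array (adjusted p = 0.0690, 0.0654, 0.0875 and 0.122, limma). Without leukemia replicate 1 the list held 5 fallen genes.

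Genes that depend on IRF1, many of them in antigen processing, changed in both directions. Of 19 tested (21 measured of 25 listed) 10 fell and 2 rose, with a median of -0.77 against -0.09 over all genes tested (63.2% passed, against 42.1%). Of the 19, 3 were below the filter on all leukemia arrays and had to fall, among them Casp1 and Nlrc5. With probe sets free of shared endings 6 fell and the median was -0.38. Casp1, the inflammatory caspase, fell by 4.56, Nlrc5, the transactivator of MHC class I genes, by 3.52, and the GTPase gene Gbp3 fell by 2.59. The peptide transporter genes Tap2 fell by 1.42 and Tap1 fell by 1.03, the immunoproteasome genes Psmb8 and Psmb9 by 1.17 and 0.85, and B2m by 0.77. The immunoproteasome gene Psmb10 was at -0.25 and the activator gene Psme1 at 0.06 without passing. Cdkn1a, the p21 cell cycle inhibitor gene, rose by 1.33 and Cd274, which encodes PD-L1, by 1.06.

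Genes around IRF5 and IRF4 changed in both directions. Of 19 tested Toll-like receptor pathway genes (22 measured of 28 listed) 5 rose and 5 fell, with a median of 0.18 (52.6% passed, against 42.1% of all tested genes). The adaptor gene Myd88 rose by 0.89, the feedback inhibitor gene Tnfaip3 by 2.08 and Tab2 by 0.51. Irak3, an inhibitor of the pathway, fell by 2.40, the receptor gene Tlr2, below the filter on all leukemia arrays, fell by 2.33 and the kinase gene Ikbke fell by 1.76. Unc93b1 and Slc15a4, which serve endosomal Toll-like receptors, fell by 1.51 and 0.93. The number that rose was 3 without leukemia replicate 2 or wild-type replicate 1, 2 without wild-type replicate 2 or 3, and 8 with the run as a block. Tab2 was at 0.78 with the run as a block, and it no longer passed once wild-type replicate 2 or 3 was dropped (limma adjusted p = 0.0527 and 0.0554).

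Of 9 tested partners and targets of IRF4 (17 measured of 20 listed) 1 rose and 3 fell, with a median of -0.40 (44.4% passed, near the 42.1% of all tested genes). Nfatc1 rose by 0.95, Tcf3, an E protein gene, fell by 1.56, the immunophilin gene Fkbp4 by 1.31 and Batf, which pairs with IRF4, by 1.08. Without leukemia replicate 1 the list held 2 risen genes. The Batf call was lost without any single array other than leukemia replicate 2 (adjusted p from 0.0509 to 0.104, limma) and with the run as a block (0.0757).

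**Figure D4:**
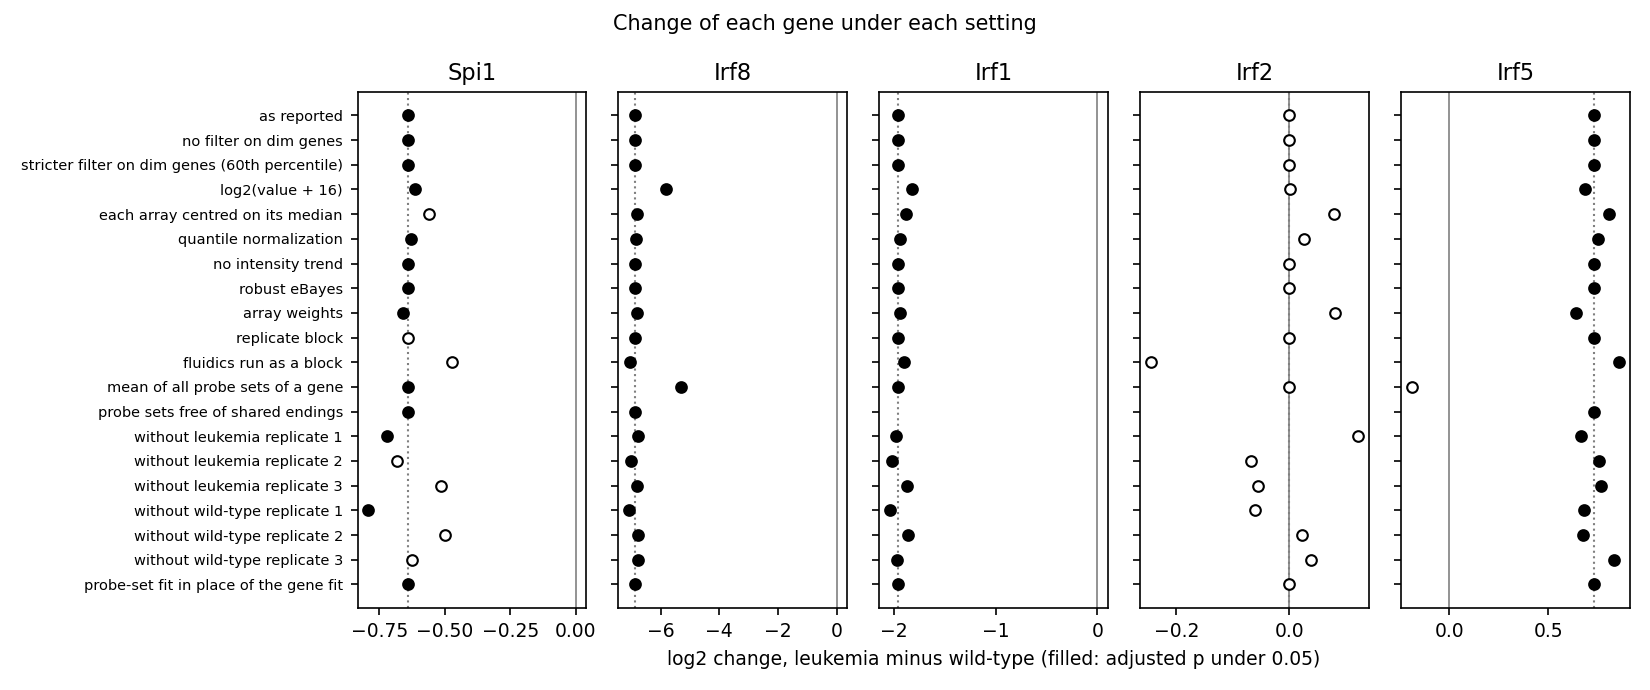
Change of each measured gene (log2, leukemia minus wild-type, x axis, scaled per panel) under the reported setting and each alternative (rows). Filled points have an adjusted p under 0.05 (limma) and the dotted line is the reported value. Irf8 and Irf1 pass in every row shown, Spi1 loses its call in 7 of 19 alternatives, and Irf5 changes sign with the mean of its probe sets. The direction of Irf8 was fixed in every row that used the filter on dim values.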

How the data were processed

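Affymetrix Mouse430_2 arrays (per the file headers) were run on 3 leukemia and 3 wild-type samples, grouped by their titles. The authors deposited linear intensity values, made with RMA per the submitters' processing notes. Its version, background correction and scaling are not given in the sources used here. RMA usually gives log2 values and the deposited ones run from 3.31 to 18869, so they were log2-transformed without a pseudocount and tested with limma as planned. Median intensity per array was 71.6 to 79.9. Array run records gave the fluidics run (2 runs, 1 chip lot). All value columns were mapped.

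Of 28821 probe sets 23750 had 1 gene symbol in the platform annotation, 677 several, 4355 none and 39 were controls. Each gene was represented by its brightest probe set over the 6 arrays, giving 13146 genes. The test took the 9715 genes and 18098 probe sets that reached the 40th percentile of an array on at least 3 arrays. The two-sided contrast of leukemia against wild-type came from limma 3.58.1 (R 4.3.3; no covariate, trended prior, 4 residual degrees of freedom), fitted separately over genes and over probe sets. P-values measure the spread between these samples, which may be partly technical. Members and lists were chosen with earlier results of these data known. Lists are described by counts and medians only. Named genes were all member probe sets, up to 3 per direction of each list with the largest called change and no overlap between groups, every measured gene of the other IRF list, and the 3 closest profiles per member. Further list genes named in the text (among them Cybb, Btk, Cx3cr1, Cyba, Itgb2, Spib, Spic, Ifngr2, Tap1, Tap2, Psmb8, Psmb9, Psmb10, Psme1, B2m, Unc93b1 and Slc15a4) were chosen after their values were seen. The procedure was tested on simulated data in which 200 of 9715 genes were changed. It recovered 7.5% of changes of 0.5 log2, 50.7% of changes of 1 and 89.4% of changes of 2, with 3 false calls. A gene that did not pass may therefore still have changed by a small amount. Promoter windows are from RefSeq, GRCm38.p6, and all 5 IRF members had at least 1. Figures were drawn with matplotlib 3.10.9.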

Additional observations from a re-analysis of the deposited data

How the results depend on the processing

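The falls of Irf8 and Irf1 kept their direction and call in all 19 and 18 alternatives. The filter on dim values fixed the direction of Irf8, which passed it through the wild-type arrays alone. Without that filter Irf8 was at -6.87 (adjusted p = 8.46e-06, limma). Leaving out single arrays gave Irf8 -7.09 to -6.77, Irf1 -2.04 to -1.86, Spi1 -0.79 to -0.50, Irf2 -0.068 to 0.12 and Irf5 0.66 to 0.83. The probe-set fit, chosen after seeing the data, changed no member's call. Spi1 lost its call on centring (-0.56), with the replicate block (-0.64, adjusted p = 0.0543, limma) and on blocking by fluidics run (-0.47). Same-numbered samples did not deviate together (r of -0.069, 0.050 and 0.030 across genes), so the numbers do not pair them. No other member's call changed with the replicate block, under which 3565 genes passed against 4089. Irf2, at 0 to 2 decimals as reported, turned to 0.000205 with log2(value + 16), to 0.078 on centring, to 0.026 with quantile normalization and to 0.080 with array weights (0.079 over probe sets), passing in none. Irf5 turned to -0.19 with the mean of its probe sets. The Irf8 change minus that of Spi1 was -5.21 with log2(value + 16) and -4.67 with the mean of probe sets, where that of Irf5 was 0.45. Leaving out single arrays gave 2647 to 4716 changed genes, 1513 to 2778 lower genes and 4393 to 8105 changed probe sets. Centring moved the split of calls from 1637 higher and 2452 lower genes to 1914 and 2070. Use of unshared probe sets alone ended the calls of Coro1a and Fkbp4 (adjusted p = 0.191 and 0.0686, limma). The causes were not tested. Irf8 in leukemia lay near the lowest intensities, which limits the size of its change.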
